A study of Homo sapiens with 9 samples.

Results

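The genes described here are the MHC class II presentation genes as measured in MOLM-13, an established human line of acute myeloid leukaemia. They are 10 genes chosen by symbol, for their function, out of 56541 genes in the count table: the chains HLA-DRA, HLA-DRB1, HLA-DPA1, HLA-DPB1, HLA-DQA1 and HLA-DQB1, the peptide editor HLA-DMA and HLA-DMB, the invariant chain CD74 and the transactivator CIITA. All 10 were found in the table by symbol. The 9 libraries formed 3 groups of 3. The shCONTROL group was RNA-seq under a control hairpin, the shBCLAF1 group was RNA-seq after a hairpin that targets BCLAF1, which is a protein of the nucleus that binds RNA, and the RIP group was RNA pulled down with BCLAF1 in cells of the shCONTROL genotype. Every group, the controls included, was kept 4 days in doxycycline at 200 ng/µL, and a RIP sample used more cells than an RNA-seq sample. All samples come from 1 cell line and nothing in the labels says that replicates were separate cultures, so p-values measure only the spread between these samples, which may be technical.

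MHC class II molecules are pairs of an alpha and a beta chain that show peptides from endocytosed proteins to helper T cells. New pairs bind CD74, the invariant chain, which fills the groove and steers them to the endosome, where cathepsins degrade CD74 and HLA-DM exchanges its last fragment for a peptide. CIITA binds no DNA itself. It is recruited by the RFX complex, CREB and NF-Y, which occupy the X and Y boxes of class II promoters. It is known as the switch that turns the whole set on. Dendritic cells and B cells express it constitutively, and interferon gamma raises it in monocytes.

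The X and Y boxes are shown first because they are the sequence through which CIITA is recruited to class II promoters. RefSeq promoter windows of GRCh38.p14, 250 bases before to 50 after each gene start, were matched for 8 of the 10 members, and HLA-DRA and CIITA had no entry. Both strands were searched for an X box core, the word made of the letters that all 4 X boxes in capitals below share, which was therefore chosen with these promoters in view, and for the Y box core ATTGG. The 2 motifs have different letters and no matches that overlap in the stretches shown. The X box core was matched in 4 members (HLA-DRB1, HLA-DQB1, HLA-DMA and HLA-DMB) and in 0.142% of all 35116 windows. The 4 matches follow from how the word was made, and an X box with other letters would not be found by it. The Y box core was matched in 7 members and in 34.6% of all windows, and both together in 0.0626%. In the stretches below, written 5′ to 3′ on the gene's strand and all lying before the gene start, capitals mark the X box match and then the first Y box match after it.
HLA-DRB1, chr6:32589885-32589934, minus strand: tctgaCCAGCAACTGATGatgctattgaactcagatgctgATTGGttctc
HLA-DQB1, chr6:32666736-32666785, minus strand: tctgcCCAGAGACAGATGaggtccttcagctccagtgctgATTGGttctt
HLA-DMA, chr6:32953167-32953217, minus strand: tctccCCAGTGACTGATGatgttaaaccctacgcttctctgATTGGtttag
HLA-DMB, chr6:32941041-32941123, minus strand: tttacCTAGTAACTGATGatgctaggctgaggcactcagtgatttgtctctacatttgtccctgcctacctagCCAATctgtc
The 2 matches lay 22 bases apart in HLA-DRB1 and HLA-DQB1, 23 in HLA-DMA and 55 in HLA-DMB, where the Y box core matched on the opposite strand. The Y box core was matched in 34.6% of all windows, and whether the match in HLA-DMB is its Y box was not tested. A match is a description of letters and not a bound site. HLA-DMA, with estimated counts in every library, and HLA-DMB, listed at 0 in every library, both held a match of each core.

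Most class II chains had no counts in this table, while CIITA and CD74 had at least 834 and 2309 in every library. Of the 10 members, 5 were listed at 0 in all 9 libraries: HLA-DRB1, HLA-DPA1, HLA-DPB1, HLA-DQA1 and HLA-DMB. In the table as a whole 64.2% of genes were at 0 in all libraries. Another 4 members, HLA-DRA, HLA-DMA, CD74 and CIITA, were above 3 counts in every library, and HLA-DQB1 had a value in some libraries. A count of 3 in one library, the floor used here, equalled 0.0819 to 0.116 CPM (the count scaled to library size), for counting error only. The values are estimates, so a listed 0 does not show that no read was present. The class I genes HLA-B and HLA-C held at least 8163 and 6010 counts in every library.

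Genes at 0 and genes with counts lay side by side on chromosome 6. Between the start of HLA-DRA and the end of HLA-DPB1 (chr6:32439887-33089696, GRCh38.p14), RefSeq lists 18 protein-coding genes that were matched in the table. Of these, 9 were at 0 in all libraries, 8 were above 3 counts in all, and HLA-DQB1 was in between. The 8 were HLA-DRA, HLA-DMA, HLA-DOB, which encodes the beta chain of the HLA-DM inhibitor HLA-DO, and 5 genes that encode no class II chain. Those 5 were TAP1 and TAP2 (the peptide transporter of class I), PSMB8 and PSMB9 (immunoproteasome subunits) and BRD2 (a bromodomain protein). HLA-DOA, the partner chain of HLA-DOB, was at 0 throughout. For both HLA-DM and HLA-DO, therefore, the table held counts for 1 chain of the pair. Of the alpha and beta pairs it held DRA without DRB1 and DQB1 without DQA1. HLA-DRB3 and HLA-DRB4, other beta chains of HLA-DR, were not found in the table by symbol, so their levels are not known.

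**Figure D1:**
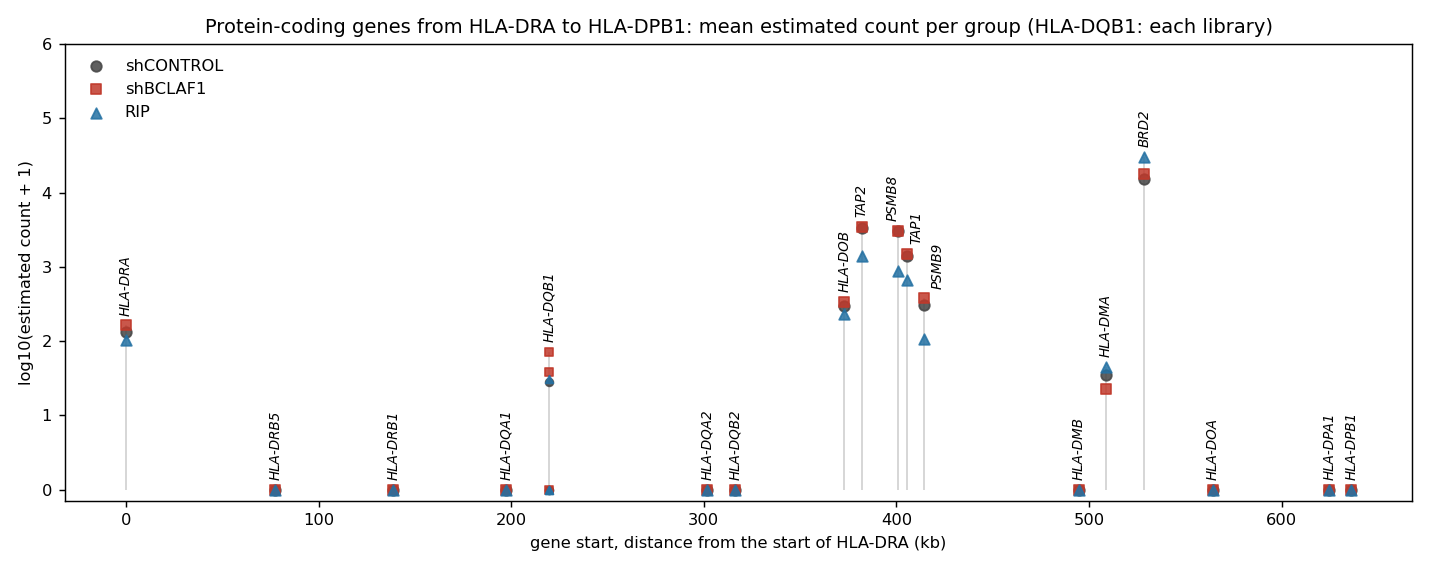
Mean estimated count of each group (each library's count for HLA-DQB1), on a log10(count + 1) scale and not scaled for depth, for the 18 protein-coding genes matched between HLA-DRA and HLA-DPB1, placed by the distance of their lower coordinate from that of HLA-DRA in kb. The 9 genes at 0 include HLA-DRB1, HLA-DQA1, HLA-DMB, HLA-DPA1 and HLA-DPB1, and BRD2, TAP2 and PSMB8 are among the genes with counts between them.

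HLA-DRA (ENSG00000204287, chr6:32439887-32445046) encodes the alpha chain of HLA-DR and was above the floor in every library. Its estimated counts were 138, 139 and 123 in shCONTROL replicates 1, 2 and 3, then 184, 173 and 130 in shBCLAF1 and 69, 93 and 150 in the RIP. Scaled to library size by TMM, the level was 3.81 ± 0.357 CPM for the control hairpin, 4.32 ± 0.682 for the BCLAF1 hairpin and 3.74 ± 1.30 for the precipitate (SD, n = 3). All 3 groups overlapped, and RIP replicate 3 and shBCLAF1 replicates 1 and 2 lay above every shCONTROL library.

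HLA-DQB1 (ENSG00000179344, chr6:32659467-32666657), the beta chain of HLA-DQ, was present or listed at 0 with no order by group. It held 0, 27 and 0 counts in shCONTROL replicates 1, 2 and 3, then 37, 70 and 0 in shBCLAF1 and 0, 0 and 30 in the RIP. Every group thus held both a 0 and a value of at least 27. No mean is given for this gene, since a 0 in this table can be a failed estimate.

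HLA-DMA (ENSG00000204257, chr6:32948618-32953097) encodes the alpha chain of the peptide editor. Its counts were low, at 18, 42 and 42 in shCONTROL replicates 1, 2 and 3, 17, 22 and 25 in those of shBCLAF1 and 40, 44 and 48 in the RIP. Its level was 0.973 ± 0.403 CPM for the control hairpin, 0.570 ± 0.118 for the BCLAF1 hairpin and 1.60 ± 0.0591 for the precipitate (SD, n = 3). The low value of shCONTROL replicate 1 fell within the shBCLAF1 range, and all RIP libraries lay above all RNA-seq libraries.

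CD74 (ENSG00000019582, chr5:150401639-150412910) encodes the invariant chain, which also serves at the cell surface as the receptor of the cytokine MIF. It measured 184, 175 and 184 CPM in shCONTROL replicates 1, 2 and 3. The levels were 231, 212 and 187 in shBCLAF1 and 90.8, 102 and 82.3 in the RIP. The lowest shBCLAF1 library stood just above the highest shCONTROL library, and every RIP library was far below both groups.

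CIITA (ENSG00000179583, chr16:10866206-10943021) encodes the transactivator. It measured 30.0, 25.3 and 26.5 CPM in shCONTROL replicates 1, 2 and 3, 28.4, 27.5 and 27.1 in those of shBCLAF1 and 32.8, 35.8 and 30.5 in the RIP, from 834 to 1079 estimated counts per library. The shBCLAF1 libraries lay inside the shCONTROL range, and the RIP libraries lay above it by a small margin. Exon lengths were not used here, so levels are compared across samples only and not between genes.

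**Figure D2:**
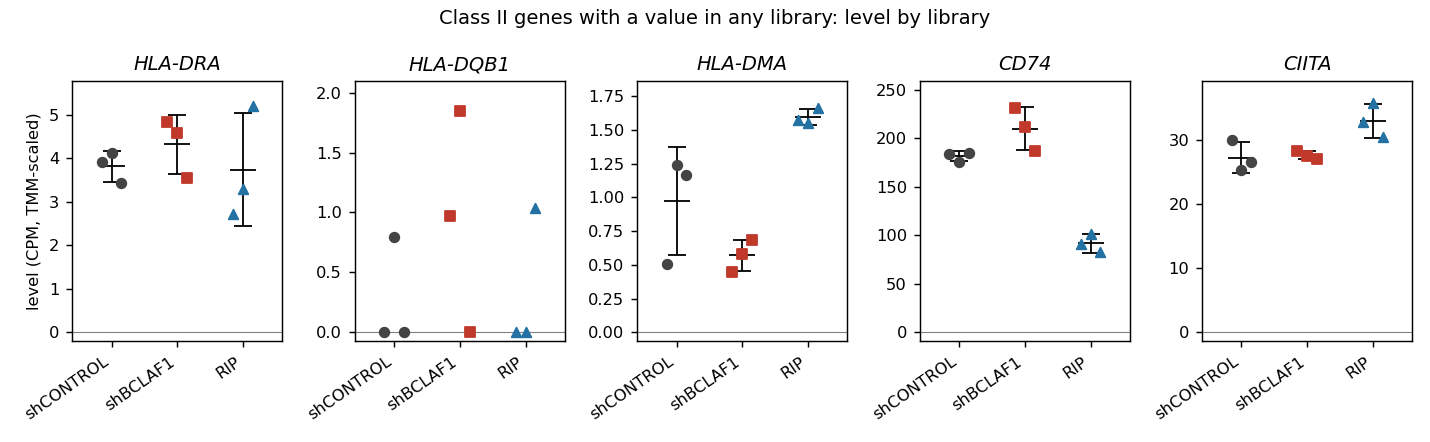
Level (CPM, TMM-scaled over the 9 libraries) of the 5 members with a value in any library, by group, with points for libraries and bars for mean ± SD (n = 3, none for HLA-DQB1). CD74 was 82.3 to 102 CPM in the RIP against 175 to 184 in shCONTROL, while CIITA stayed between 25.3 and 35.8 in all 9 libraries.

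The question of the hairpin samples is what loss of BCLAF1 does to RNA levels. The BCLAF1 transcript stood at 322 ± 8.40 CPM with the control hairpin and at 113 ± 12.5 with its own (SD, n = 3 each), which is 35.2% of the control, and the groups did not overlap. Library totals ran from 25819144 to 36635268 estimated counts over the 9 libraries.

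None of the class II genes passed the test after knock-down. Of the 5 members tested (the others were at 0), 0 passed an adjusted p of 0.05 in either direction by edgeR's quasi-likelihood test with Benjamini-Hochberg adjustment over 16961 genes. In the same fit 15.5% of all genes were higher and 16.9% lower, 32.3% in all. At an unadjusted p under 0.05 the count was 1 (CD74), and DESeq2 called 1 (CD74). The median log2 change of the 5 was 0.18, against 0.02 over all genes tested. With a minimum log2 change of 1 in size, which 1.81% of genes passed as higher and 2.29% as lower, the count was also 0.

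CIITA stood at a log2 value of 0.02 (SE 0.08, adjusted p 0.851, edgeR). Its 95% interval ran from -0.16 to 0.21, a fold of 0.893 to 1.16, so the fit leaves room for changes within those bounds. The change of CD74 was 0.22 (SE 0.08, adjusted p 0.0914, edgeR), with an interval of 0.02 to 0.41. CD74 was the 1 member of the 5 tested whose groups did not overlap, where 49.3% of all genes tested did not. It passed with DESeq2 (adjusted p 0.0380), with total counts in place of TMM (0.0293) and without shBCLAF1 replicate 3 (0.0117), the shBCLAF1 library with the lowest CD74. Over its 12 alternatives the adjusted p ran from 0.0117 to 0.232.

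The chain genes were measured with less precision. HLA-DRA stood at a log2 value of 0.18 (SE 0.16, adjusted p 0.445, edgeR) with an interval of -0.21 to 0.57. For HLA-DMA it was -0.77 (SE 0.40, adjusted p 0.205) with an interval of -1.74 to 0.21. For HLA-DQB1 it was 1.83 (SE 1.85, adjusted p 0.514), and the interval of -2.69 to 6.34 spans strong changes in both directions. It was 0.87 without shBCLAF1 replicate 2 and 8.12 without shCONTROL replicate 2, which left the other shCONTROL libraries at 0, so that the latter value depends on the prior count. A difference in HLA-DQB1 was not detectable at these counts.

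The question of the RIP is which RNAs come down with BCLAF1 more than their level in RNA-seq would give. Among the class II genes CD74 was lower in the precipitate, and no member passed as higher. Of 4 members tested, 1 passed an adjusted p of 0.05 as lower and 0 as higher, where 24.7% and 24.6% of 16727 genes did, and 49.2% in all. CD74 changed, in log2 units, by -0.99 (SE 0.11, adjusted p 8.40e-04, edgeR), with an interval of -1.25 to -0.73, and its RIP level was 50.5% of that in shCONTROL. With a minimum log2 change of 1 in size, which 11.1% of genes passed as higher and 13.6% as lower, the count was 0, since CD74 lay just inside that limit. CD74 passed that limit with total counts (-1.11), against both RNA-seq groups averaged (-1.09), without shCONTROL replicate 2 (-1.02) and without RIP replicate 2 (-1.08). The reference was RNA-seq of total RNA and no mock precipitation was analysed here, so recovery by BCLAF1 and background of the precipitation cannot be told apart.

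CIITA differed from CD74 in the sign of its RIP value. Its log2 change was 0.27 (SE 0.12, adjusted p 0.103, edgeR), with an interval of -0.01 to 0.55. It passed when all 9 libraries were fitted (adjusted p 0.0378) and against both RNA-seq groups averaged (0.0215). The number of CD74 counts per CIITA count, which needs no scaling between libraries, was 6.14, 6.94 and 6.95 in shCONTROL replicates 1, 2 and 3. It was 8.15, 7.71 and 6.90 in shBCLAF1 and 2.77, 2.84 and 2.70 in the RIP. The RIP ratios lay apart from all RNA-seq ratios, and the shBCLAF1 and shCONTROL ratios overlapped.

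The RIP log2 value of HLA-DMA was 0.71 (SE 0.39, adjusted p 0.187, edgeR), with an interval of -0.26 to 1.67. It passed against both RNA-seq groups averaged (adjusted p 0.0172). HLA-DRA had a value of -0.04 (SE 0.28, adjusted p 0.922), with an interval of -0.72 to 0.65. For 3 of the 4 members (CD74, CIITA and HLA-DMA) the RIP and shCONTROL levels did not overlap, as was so for 67% of all genes tested. The knock-down and the RIP share the shCONTROL libraries, so the values of a member in the 2 comparisons are not independent of each other.

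**Figure D3:**
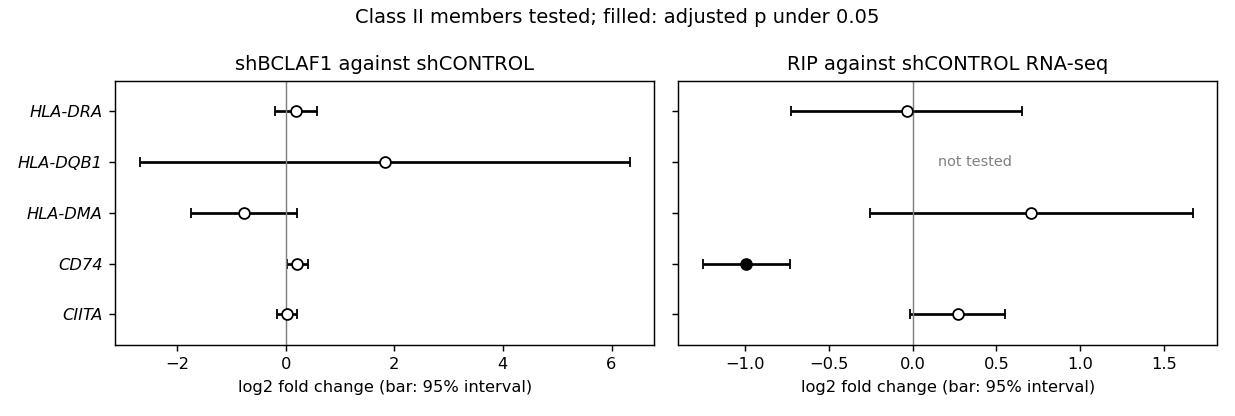
Log2 change of the members tested, with 95% intervals from the edgeR fit, after knock-down (left) and in the RIP (right), where filled points have an adjusted p under 0.05. The 1 filled point is CD74 in the RIP, at -0.99, and the widest interval is that of HLA-DQB1 after knock-down.

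Other genes of the class II region gave few values. Of the 13 genes of a list of other class II locus genes that were in the table, 11 were at 0 in all libraries. HLA-DOB measured 8.44 ± 0.927 CPM for the control hairpin, 9.01 ± 1.02 for the BCLAF1 hairpin and 8.44 ± 2.65 for the precipitate (SD, n = 3). Its log2 change was 0.10 after knock-down (adjusted p 0.621, edgeR) and -0.01 in the RIP (0.975). BRD2, which lies among the class II genes without belonging to the pathway, measured 432 ± 9.81, 469 ± 13.8 and 1090 ± 209 CPM (SD, n = 3 each). Its log2 change was 1.33 in the RIP (SE 0.16, adjusted p 0.00136) and 0.12 after knock-down (adjusted p 0.0532). The knock-down value of BRD2 passed with DESeq2 (0.0112), with total counts (0.00760) and without shBCLAF1 replicate 3 (0.0227).

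Among the factors of class II promoters, the RFX subunit RFXAP had lower RNA after knock-down. This list and the lists below were chosen with earlier results of these data known. Their counts and medians describe the listed genes only. Of 14 promoter factors tested, 1 rose and 5 fell, with a median log2 change of -0.03, where 15.5% of all genes tested rose and 16.9% fell. RFXAP, a subunit of the complex that binds the X box, went from 16.1 ± 1.58 CPM with the control hairpin to 8.21 ± 0.559 in shBCLAF1 (SD, n = 3), a log2 change of -0.97 (SE 0.10) at an adjusted p of 0.00125 by edgeR. The other RFX subunits did not pass, with 0.12 for RFXANK (adjusted p 0.323) and -0.04 for RFX5 (0.632). ZXDB and ZXDC, zinc finger proteins of this list, fell by 0.60 and 0.28 on the log2 scale. CREB1, a factor of the X2 box, fell by 0.27. ZXDC missed the threshold when all 9 libraries were fitted (adjusted p 0.251). CREB1 did not pass without shCONTROL replicate 1 or 2 (0.0629 and 0.0565). The 1 riser was CREBBP, an acetyltransferase that is a coactivator of CIITA, at 0.28 (adjusted p 0.0226). The count of risers was 0 when all 9 libraries were fitted, 2 with DESeq2 and 3 with total counts. It was also 0 without shCONTROL replicate 1 or without shBCLAF1 replicate 1 or 2, 2 without shCONTROL replicate 3 and 3 without shBCLAF1 replicate 3. The count of fallers was 3 when all 9 libraries were fitted and without shCONTROL replicate 1.

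The listed genes that act upstream of CIITA rose more often than they fell, beside a CIITA level that did not pass. Of 19 tested, 9 rose and 1 fell, with a median log2 change of 0.20 against 0.02 over all genes, of which 15.5% rose and 16.9% fell. JAK2, a kinase of the interferon gamma receptor, went from 42.1 ± 0.774 CPM with the control hairpin to 70.4 ± 4.06 in shBCLAF1 (SD, n = 3), a log2 change of 0.75 (SE 0.05) at an adjusted p of 3.85e-04 by edgeR. IFNGR1, the ligand-binding chain of that receptor, rose by 0.58. USF1, which binds the interferon-responsive promoter of CIITA, rose by 0.71. IRF1, which acts on the same promoter, measured 27.0 ± 2.89 and 26.9 ± 0.734 CPM (SD, n = 3 each; log2 change -0.001, adjusted p 0.994). The list also holds inhibitors of this signalling, and SOCS3 and SOCS1 rose by 1.19 and 0.80. The gene that fell was TGFBR1, a receptor of TGF-beta, by 0.36. When all 9 libraries were fitted 5 of the list rose. With DESeq2, or without shCONTROL replicate 1, 2 fell.

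The listed genes of peptide processing were higher or did not pass after knock-down. Of 10 tested, 5 were higher and 0 lower, with a median of 0.17, where 15.5% of all genes tested rose and 16.9% fell. DESeq2 called 1 lower. IFI30, the thiol reductase of the endosome, went from 14.1 ± 0.403 CPM with the control hairpin to 24.7 ± 2.44 in shBCLAF1 (SD, n = 3), a log2 change of 0.81 (SE 0.09) at an adjusted p of 0.00143 by edgeR. CTSD, an aspartic protease, rose by 0.70, CTSS, the cathepsin that degrades CD74, by 0.25, and SPPL2A, which cleaves the last membrane-bound piece of CD74, by 0.26. CST3 rose most, by 1.19, and it encodes an inhibitor of cysteine cathepsins, not a protease. SPPL2A missed the threshold when all 9 libraries were fitted (adjusted p 0.0604), in which 3 genes of the list rose.

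In the list of class II traffic and turnover 7 of 18 rose and 2 fell, with a median of 0.18, where 15.5% of all genes tested rose and 16.9% fell. The tetraspanins CD82 and CD63, membrane proteins of the compartment where class II is loaded, rose by 0.75 and 0.61. AP3B1, a subunit of the AP-3 sorting adaptor, rose by 0.50. The genes that fell were CD37 (by 0.18) and CD9. CD9 was listed at 0 in all shBCLAF1 libraries beside 172, 451 and 65 counts in shCONTROL replicates 1, 2 and 3, so that its fold rests mostly on replicate 2 and is not given. MARCHF8 did not pass (adjusted p 0.0677, edgeR), though its groups did not overlap. It held 500, 452 and 430 counts in shCONTROL replicates 1, 2 and 3 and 0, 0 and 72 in those of shBCLAF1. In the RIP it held 261, 379 and 0, and a 0 in this table can be a failed estimate. The count of fallers was 4 with DESeq2 and 1 with total counts or when all 9 libraries were fitted. It was also 1 without any single shCONTROL library and without shBCLAF1 replicate 1 or 2.

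Of 9 CD74 partners and costimulatory genes tested, 4 were higher and 2 lower after knock-down, with a median of 0.02, where 15.5% of all genes tested rose and 16.9% fell. MIF, the ligand of CD74, went from 186 ± 8.70 CPM with the control hairpin to 94.4 ± 5.54 in shBCLAF1 (SD, n = 3), a log2 change of -0.97 (SE 0.06) at an adjusted p of 2.34e-04 by edgeR. CD86, a ligand of CD28 on T cells, fell by 0.64. CXCR4 and CXCR2, which can pair with CD74 as receptors of MIF, rose by 0.38 and 0.63, and the adhesion molecules ICAM1 and CD58 by 0.78 and 0.75. CXCR4 missed the threshold when all 9 libraries were fitted (adjusted p 0.0514), in which 2 genes of the list rose. CD80 and CD40 were at 0 in every library.

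In the RIP, the RNAs listed for processing and traffic passed as lower more often than as higher. These lists were chosen with earlier results known, so a direction of the pathway as a whole was not tested. Of 11 processing genes tested, 2 were higher and 7 lower, with a median log2 change of -0.54 against -0.05 over all genes, of which 24.6% were higher and 24.7% lower. CST3 went from 120 ± 4.12 CPM with the control hairpin to 20.6 ± 1.77 in the RIP (SD, n = 3), a log2 change of -2.54 (SE 0.09) at an adjusted p of 1.42e-04 by edgeR. SPPL2A was lower by a log2 value of -1.58, CTSC, a dipeptidyl peptidase, by -1.30 and CTSD by -1.09. One of the 2 higher genes, CTSH, was at 0 in shCONTROL and held 122, 28 and 30 counts in RIP replicates 1, 2 and 3, so that its fold rests mostly on replicate 1 and is not given. With total counts, without any single shCONTROL library or without RIP replicate 1, 1 processing gene was higher.

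Of 18 traffic genes, 2 were higher and 7 lower in the RIP, with a median of -0.47, beside the same shares over all genes. LAMP2 and LAMP1, the main lysosomal membrane proteins, stood at log2 values of -2.55 and -1.98, and the tetraspanins CD53 and CD81 had -1.48 and -1.29. With total counts 1 traffic gene was higher, and without shCONTROL replicate 3 the count was 0. Among 9 CD74 partners tested, 1 was higher and 2 were lower, beside the same shares over all genes. MIF had -3.47 and its homologue DDT -2.13, while CD44, the signalling partner of CD74, had 1.15. Against both RNA-seq groups averaged 5 partners were lower. Without RIP replicate 2 the count of higher partners was 2.

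Of 14 promoter factors, 5 were higher and 6 lower in the RIP, with a median of 0.03, where 24.6% of all genes tested were higher and 24.7% lower. Without shCONTROL replicate 2 the count of lower factors was 3. EP300, an acetyltransferase, changed, in log2 units, by 2.14 (SE 0.32, adjusted p 0.00272) and CREB1 0.67, while RFXANK had -0.87 and ZXDB -0.85. Of 19 genes upstream of CIITA, 7 were higher and 4 lower, with a median of 0.37, beside the same shares over all genes. EZH2, a histone methyltransferase, had 1.32, the transcription factor MYBL2 1.32, USF1 0.97 and JAK1, a kinase of the interferon receptors, 0.91.

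**Figure D4:**
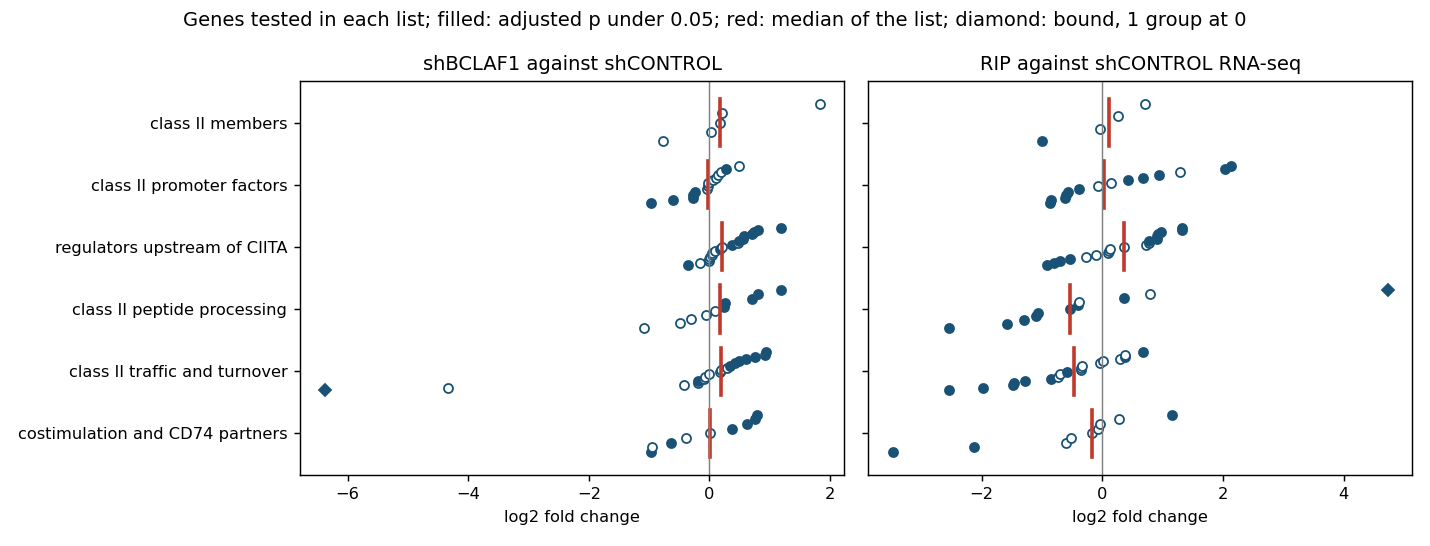
Log2 change of every gene tested in the members and in 5 lists of pathway genes, after knock-down (left) and in the RIP (right), where each point is a gene and the red line the list's median. Filled points have an adjusted p under 0.05, and the 2 diamonds (CD9, left, and CTSH, right) are bounds against a floor of 3 counts per library, scaled by TMM, because 1 group was at 0. Each bound rests mostly on 1 library of the other group. The processing and traffic lists have medians of -0.54 and -0.47 in the RIP.

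Markers of other cells that carry class II were checked. Of 7 B cell markers, MS4A1, CD79B, PAX5, CR2 and BLNK were at 0 in all libraries, and the summed level was 2.86 to 3.32 CPM in the shCONTROL libraries, 2.29 to 2.80 in those of shBCLAF1 and 1.35 to 2.72 in the RIP. Of 10 dendritic cell markers, 8 were at 0, CD1C, CLEC10A and CLEC9A among them. The other two, ZBTB46 and BATF3, gave a sum of 19.6 to 20.5 CPM in the shCONTROL libraries, 10.6 to 12.6 in those of shBCLAF1 and 39.7 to 50.5 in the RIP. After knock-down BATF3 fell by 1.81 on the log2 scale (adjusted p 1.81e-04, edgeR) and ZBTB46 rose by 0.45 (0.0396). Of 13 myeloid markers, 12 had counts above the floor, and CD14 was at 0. Their sum was 2303 to 2378 CPM in shCONTROL and 4142 to 4511 in shBCLAF1, with LYZ, a monocyte enzyme, at 729 ± 57.0 and 2637 ± 194 (SD, n = 3 each). Of the 12 myeloid markers tested after knock-down, 4 rose and 2 fell (FLT3 and ITGAX), with a median log2 change of -0.01, and LYZ made up most of the difference in the sum. In the RIP the sum was 1935 to 2167, and of the 12 markers tested there 3 were higher and 5 lower. LYZ was at 46.8 ± 13.1 CPM in the RIP, and FLT3 at 603 ± 94.2 against 326 ± 13.5 in shCONTROL (SD, n = 3 each). The sum therefore holds changes in both directions. The part of these differences in the values of CD74 and of the pathway lists was not tested. The globin genes HBA1 and HBA2 were at 0 in all RNA-seq libraries and held 66, 35 and 77 and 993, 0 and 1660 counts in RIP replicates 1, 2 and 3. In bulk RNA a change in the share of cells of a type and a change in RNA per cell cannot be told apart.

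The genes whose levels followed each member most closely over the 9 libraries were found by the root mean square difference of centred log2 CPM, among 11855 genes with counts in every library (11856 for HLA-DMA, whose own mean count was too low for that set). The closest to CD74 were ZNF367, ZNF689 and ALG12, at 0.07 each, where CD74 itself varied by 0.53 around its mean. For CIITA they were PHC2 (0.05), SF3A1 (0.06) and FEM1B (0.06), beside a spread of 0.15. The closest to HLA-DRA was MYL12A (0.11, beside a spread of 0.28), and to HLA-DMA it was HNRNPA3 (0.27, beside 0.72). None of these was a gene of the class II lists, and the values describe likeness over libraries in 3 groups only.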

How the data were processed

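The values are estimated counts, deposited by the authors in 1 table without normalization. STAR 2.7.11b, StringTie 2.2.3 and the build hg38 are named in the submitters' processing notes without their roles, and the annotation is not given in the sources used here. Per the labels' protocols, libraries were stranded, depleted of ribosomal RNA and read as pairs of 50 bases. The values were whole numbers. One entry without a gene name, with 2.18% to 3.75% of the counts in 8 libraries, was left out.

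Each comparison was fitted on its own 6 libraries with edgeR 4.0.16 in R 4.3.3: default filter on low counts, TMM scaling, prior count 0.125, quasi-likelihood F-test, Benjamini-Hochberg adjustment over all genes tested, threshold 0.05. Standard errors and 95% intervals were derived from the coefficient and its F statistic. CPM values use TMM over the 9 libraries. The script was tested on simulated data. DESeq2 1.42.0, other scalings, no filter, all 9 libraries, the replicate number as a block and leaving out each library were alternatives.

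The members and lists were chosen with earlier results of these data known. Beside the members, BCLAF1, its paralogue THRAP3 and the other class II locus genes above the floor, the rule named up to 4 genes per list and comparison with the smallest adjusted p and groups that do not overlap. Of the genes so named, 1 is not reported here. Named outside it, after their values were seen, were SOCS1, IRF1, TGFBR1, CREBBP, RFX5, CTSS, CTSH, CD9, CD37, CXCR2, CD58, CD80, CD40, HLA-B and HLA-C, after knock-down RFXANK, and the marker genes. MARCHF8 was also named outside the rule.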

Additional observations from a re-analysis of the deposited data

How the results depend on the processing

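After knock-down 5484 genes were called, 2447 with all 9 libraries in the fit and 696 with a minimum log2 change of 1, and 4184 to 5372 without 1 library. The count of class II members called after knock-down was 0, and it was 1 with total counts, 1 with DESeq2 and 0 to 1 without 1 library. In the RIP 8231 genes were called, and 4134 with the minimum change. The count of members called in the RIP was 1, with 2 in the fit of all 9 libraries, 3 against both RNA-seq groups averaged and 0 with the minimum change. It was 1 in every fit without 1 library. The log2 fold change crossed 0 for CIITA after knock-down (-0.022 to 0.11 without 1 library), for THRAP3, the paralogue of BCLAF1, after knock-down (-0.011 to 0.20), and in the RIP for HLA-DRA (-0.35 to 0.15) and HLA-DOB (-0.29 to 0.14). Total counts moved the median of all genes in the RIP from -0.05 to -0.17. They also moved the split of the genes called, from 2625 higher and 2859 lower after knock-down to 3244 and 2486. In the RIP it moved from 4107 higher and 4124 lower to 3403 and 4529. Deviations of same-numbered libraries correlated weakly, at 0.12, 0.03 and 0.11 for shCONTROL and shBCLAF1, each the best match of its library. Libraries of these groups with different numbers correlated at -0.11 to -0.008. For shCONTROL and the RIP the same-numbered values were -0.03, 0.03 and 0.02, within the range of -0.07 to 0.05 for different numbers. Whether samples with the same number belong together was not tested. With the replicate number as a block, 4809 genes were called after knock-down and 6506 in the RIP, with 0 and 1 members, and the count of promoter factors that rose after knock-down was 0 in place of 1. Low counts limit HLA-DQB1 and HLA-DMA most. HLA-DQB1 was not tested in the RIP because it did not pass the filter on low counts.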
